A study of Mus musculus with 9 samples.

Results

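The genes described here are 42 components of TGF-beta, BMP and activin signalling, taken by gene symbol from a list of 13 ligands and latency proteins, 10 receptors, 8 SMADs, 8 antagonists and 3 target genes. All 42 were present among the 21124 genes of the deposited count tables, and all 42 passed the filter on low counts that left 15509 genes for testing. They were measured by RNA sequencing of rat penile tissue, with 3 libraries in each of 3 groups. In the Injury group both major pelvic ganglia, from which autonomic nerves reach the penis, were clamped as a model of neurogenic erectile dysfunction. In the Sham group the same operation was done without harm to the ganglia. Rats of the Sacral NC group had the same clamping followed by a transplant of sacral neural crest cells, which the title says were made from human pluripotent stem cells. Tissue was taken 4 weeks after surgery in every group. No injection without cells is named for the Injury group, so the transplanted cells and the procedure of giving them cannot be told apart. The strain and age are not given in the labels, and nothing in them says that the 3 libraries of a group came from separate animals, so p-values measure only the spread between libraries, which may be technical.

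The ligands of this family are secreted dimers that bind pairs of type I and type II serine/threonine kinase receptors. TGF-betas and activins act mainly through SMAD2 and SMAD3, and BMPs mainly through SMAD1, SMAD5 and SMAD9, and both arms share SMAD4. TGF-betas are secreted in a latent form held in the extracellular matrix by latent TGF-beta binding proteins, BMPs are held in check by secreted antagonists such as noggin and chordin, and the Id genes are direct BMP targets. In erectile tissue TGF-beta is known for its part in fibrosis of the corpora cavernosa, where smooth muscle is replaced by collagen.

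Total reads per library ran from 15442190 to 18283418. The labels give mouse as the organism, but the titles name rats and all 21124 identifiers are rat Ensembl identifiers. The labels also give pluripotent stem cells as the cell type, and the 3 markers of such cells found in the tables, Pou5f1, Lin28a and Dppa4, had at most 9 reads in any library. Smooth muscle, endothelial and fibroblast markers were abundant in all 9 libraries. Skeletal muscle markers took over 0.1% of reads in 4 libraries (Sham 1, Injury 1, Injury 2 and Sacral NC 2) and stood at 47.4 to 6508 CPM in Sham, 105 to 22924 CPM in Injury and 31.9 to 1720 CPM in Sacral NC. Sacral NC 2 also stood apart from the other 2 libraries of its group, with 9282 CPM of smooth muscle markers against 1828 and 2943 CPM, and 176 CPM of macrophage markers against 766 and 1340 CPM. Sham 1 differed from the rest of its group in the same directions. It had 7433 CPM of smooth muscle markers against 3407 and 3175 CPM, and 380 CPM of macrophage markers against 599 and 641 CPM. In bulk tissue, fewer cells of a type and less RNA per cell cannot be told apart. Levels below are normalised read counts (CPM) scaled by the trimmed mean of M-values (TMM), given as CPM for libraries 1 to 3 in order and as mean ± SD (n = 3). Since gene lengths are not given in the tables, levels are compared between libraries and not between genes.

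After clamping, Ltbp3, which encodes a matrix protein that holds latent TGF-beta, and Acvr1, which encodes the type I receptor ALK2 for BMPs and activins, were higher than in Sham. After cell transplantation Ltbp3 was lower and Bmp4, a BMP ligand, was higher than in Injury. No SMAD, antagonist or target gene passed the test in any of the 3 comparisons, and no member passed it between Sacral NC and Sham. Calls are at a Benjamini-Hochberg adjusted p under 0.05 over all genes in edgeR's quasi-likelihood test. In Injury against Sham 2 of 42 members were called, or 4.76%, beside 4.43% of all genes tested (3.09% higher, 1.34% lower); both were higher. In Sacral NC against Injury 2 of 42 were called, again 4.76%, beside 6.96% of all genes (3.26% higher, 3.7% lower); 1 was higher and 1 lower. In Sacral NC against Sham 0 of 42 were called, beside 0% of all genes. These shares of called members lie near those of all genes. The median log2 change of the 42 members was -0.09 in Injury against Sham, 0.20 in Sacral NC against Injury and 0.10 in Sacral NC against Sham, and over all genes tested it was -0.04, 0.03 and 0.00. The first 2 comparisons share the Injury libraries, so opposite signs in them for the same gene are not independent of each other.

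**Figure D1:**
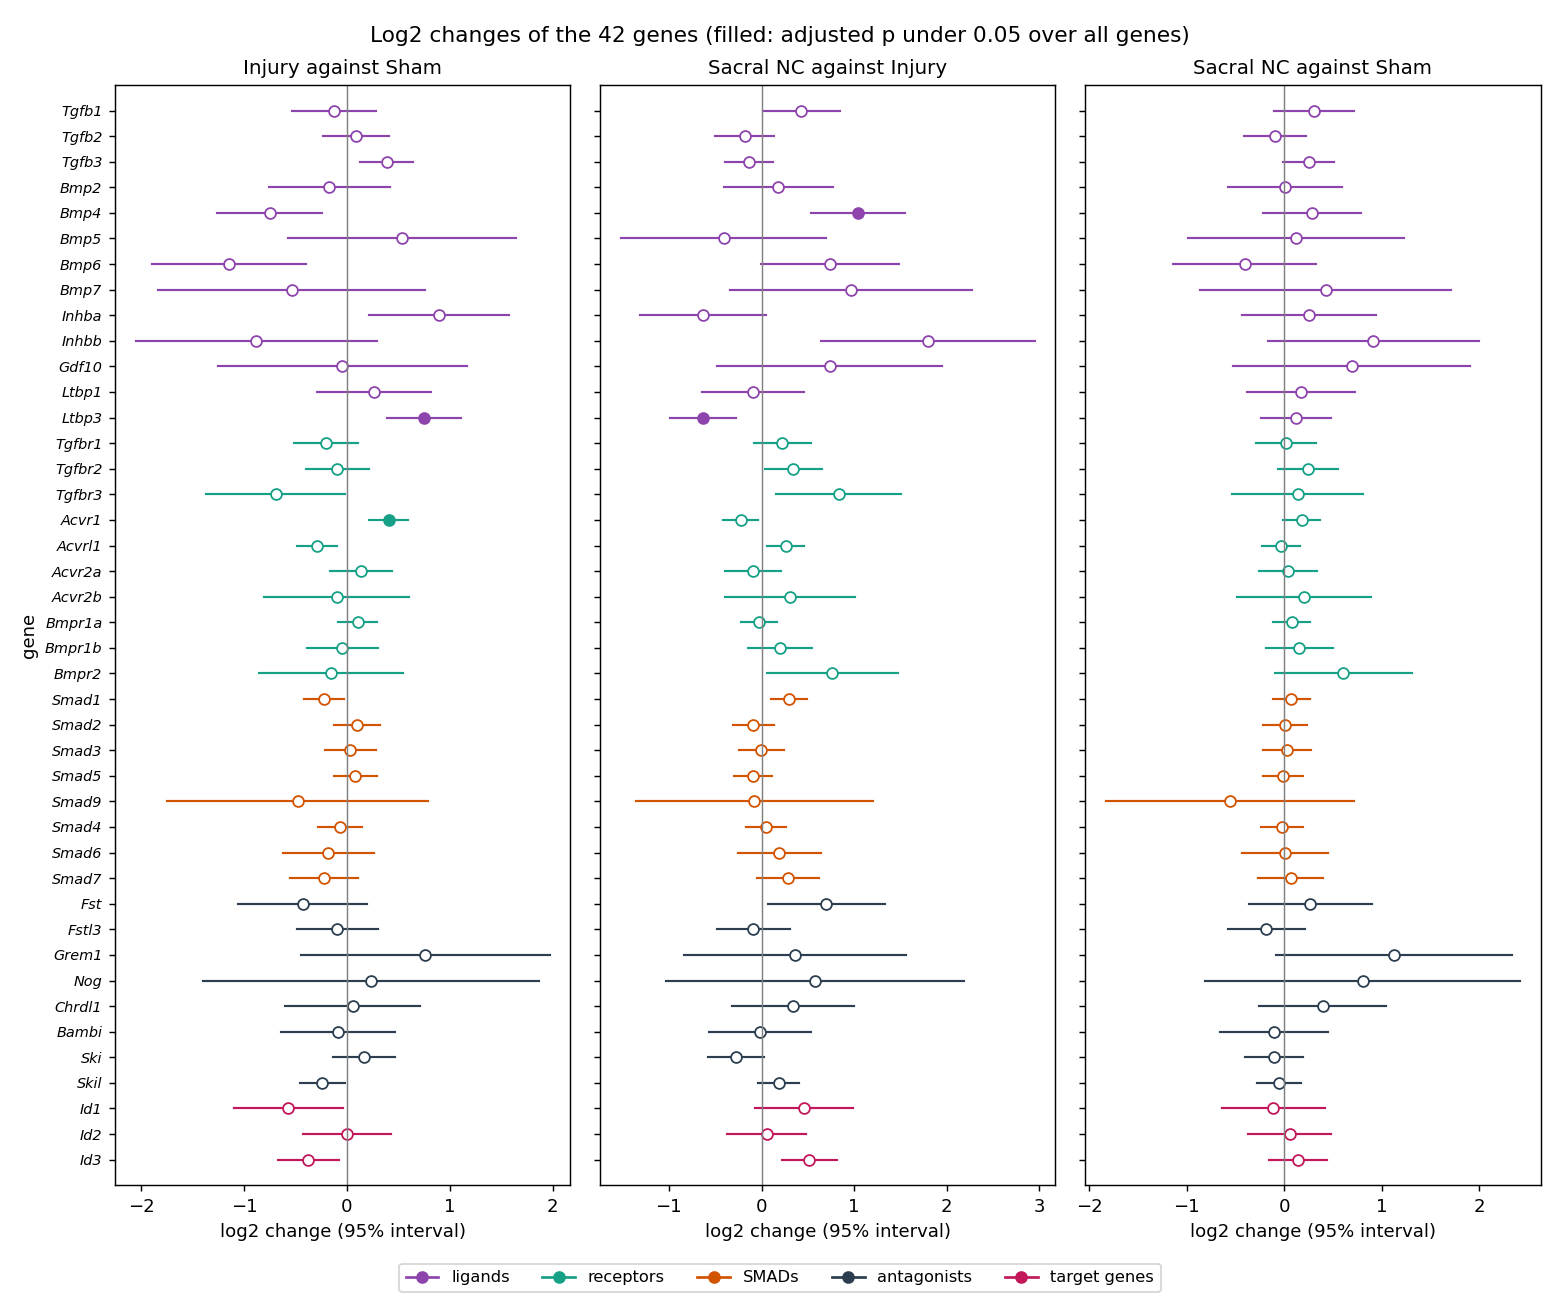
Log2 change of each of the 42 genes (x axis, with 95% interval) in the 3 comparisons, coloured by class; filled points passed an adjusted p of 0.05 over all genes in edgeR. Filled points are Ltbp3 and Acvr1 in Injury against Sham and Ltbp3 and Bmp4 in Sacral NC against Injury, and there is none in Sacral NC against Sham.

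Among the ligands and the proteins that keep them latent, Ltbp3 stood at 248, 186 and 221 CPM in the Sham libraries, or 218 ± 31.2 CPM (SD, n = 3). It stood at 349, 337 and 415 CPM in the Injury libraries, or 367 ± 41.9 CPM (SD, n = 3), and at 207, 279 and 228 CPM in the Sacral NC libraries, or 238 ± 36.8 CPM (SD, n = 3). Every Injury library was above every Sham and every Sacral NC library, while Sham and Sacral NC overlapped. Ltbp3 rose 1.68-fold in Injury against Sham, a log2 change of 0.75 ± 0.16 (SE, adjusted p = 0.0363, edgeR). It fell in Sacral NC against Injury to 0.648 of the Injury level, a log2 change of -0.63 ± 0.16 (SE, adjusted p = 0.0495, edgeR), just inside the threshold. Leaving out any 1 Sham or Injury library, or Sacral NC 3, took the first call away, and the second remained only without Sacral NC 2. The log2 change over these 9 fits ran from 0.65 to 0.85 in Injury against Sham and from -0.76 to -0.53 in Sacral NC against Injury. In the tables Ltbp3 (ENSRNOG00000020813) lies at 203029877 to 203045975 on chromosome 1, of a rat build not given in the sources used here. It overlaps another gene on the opposite strand, and since the strand setting of the counting is not given, reads cannot be told apart where they overlap. Ltbp1, of the same protein family, stood at 198, 221 and 293 CPM in Sham, 235, 283 and 338 CPM in Injury and 270, 190 and 346 CPM in Sacral NC. Its groups overlapped, and its log2 changes were 0.27, with an interval of -0.29 to 0.82, and -0.09, with an interval of -0.64 to 0.46, in the same 2 comparisons.

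Bmp4 stood at 74.9, 57.4 and 75.3 CPM in Sham, or 69.2 ± 10.2 CPM (SD, n = 3). It stood at 37.4, 42.6 and 43.4 CPM in Injury, or 41.1 ± 3.26 CPM (SD, n = 3), and at 96.9, 55.1 and 102 CPM in Sacral NC, or 84.6 ± 25.7 CPM (SD, n = 3). All Injury libraries were below those of the other 2 groups, and Sacral NC 2 was nearest to them. Bmp4 rose 2.06-fold in Sacral NC against Injury, a log2 change of 1.04 ± 0.22 (SE, adjusted p = 0.0322, edgeR). Its log2 change in Injury against Sham, -0.75 ± 0.22 (SE), did not pass the test (adjusted p = 0.0975, edgeR). The rise in Sacral NC kept its call only without Sham 2 and without Sacral NC 2, with log2 changes of 0.85 to 1.27 over the 9 fits that left out 1 library. Bmp4 (ENSRNOG00000009694) lies at 19618542 to 19623306 on chromosome 15 in the tables and overlaps no other gene there.

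None of the other ligands was called. Bmp6, Inhbb, Gdf10 and Tgfb1, the receptor gene Bmpr2, the antagonist gene Grem1 and the target gene Id1 are given in full, a choice made after their values were seen. Bmp6, which encodes a BMP known as an endothelial signal to hepcidin in liver, stood at 86.9, 37.0 and 34.7 CPM in Sham, 24.3, 26.8 and 20.6 CPM in Injury and 41.6, 41.7 and 36.5 CPM in Sacral NC. Its Injury libraries lay below all others, and the Sham mean was carried by Sham 1. The log2 change was -1.14 ± 0.33 (SE) in Injury against Sham (adjusted p = 0.0912, edgeR) and 0.74 ± 0.33 (SE) in Sacral NC against Injury (adjusted p = 0.191, edgeR). With the skeletal muscle score as a covariate, Bmp6 was the member called in both comparisons. Inhbb, which encodes the activin beta B subunit, had 17, 20 and 22 reads in Sham, 7, 11 and 9 in Injury and 44, 12 and 45 in Sacral NC. These are few reads, and Sacral NC 2 lay among the libraries of the other groups. Its log2 change in Sacral NC against Injury was 1.79 ± 0.51 (SE, adjusted p = 0.0707, edgeR). Inhba, encoding the beta A subunit, had 27 to 60 reads in Sham, 58 to 72 in Injury and 38 to 53 in Sacral NC, and its log2 changes were 0.89 (adjusted p = 0.132, edgeR) and -0.63 (adjusted p = 0.213, edgeR).

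Of the TGF-beta isoforms, Tgfb1 stood at 46.4, 49.3 and 43.7 CPM in Sham, 40.8, 41.5 and 45.5 CPM in Injury and 60.7, 40.4 and 71.1 CPM in Sacral NC. Its Sacral NC 1 and 3 libraries were above all others and Sacral NC 2 was the lowest of the 9. The log2 change of Tgfb1 was -0.13 in Injury against Sham, with an interval of -0.54 to 0.29, and 0.43 in Sacral NC against Injury (adjusted p = 0.172, edgeR). Tgfb3 averaged 201 ± 20.9 CPM in Sham and 262 ± 21.3 CPM in Injury (SD, n = 3), groups that did not overlap, with a log2 change of 0.39 (adjusted p = 0.0972, edgeR). Tgfb2 had a log2 change of 0.09, with an interval of -0.23 to 0.41. Gdf10, which encodes a BMP-related growth factor, stood at 58.8, 115 and 104 CPM in Sham, 70.3, 74.3 and 125 CPM in Injury and 190, 44.6 and 215 CPM in Sacral NC. Its highest and its lowest values were both in Sacral NC. Bmp2, Bmp5 and Bmp7 had wide intervals, and their groups overlapped in all 3 comparisons. Bmp7 for example had 409 reads in Sacral NC 1 and 86 in Sacral NC 3.

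**Figure D2:**
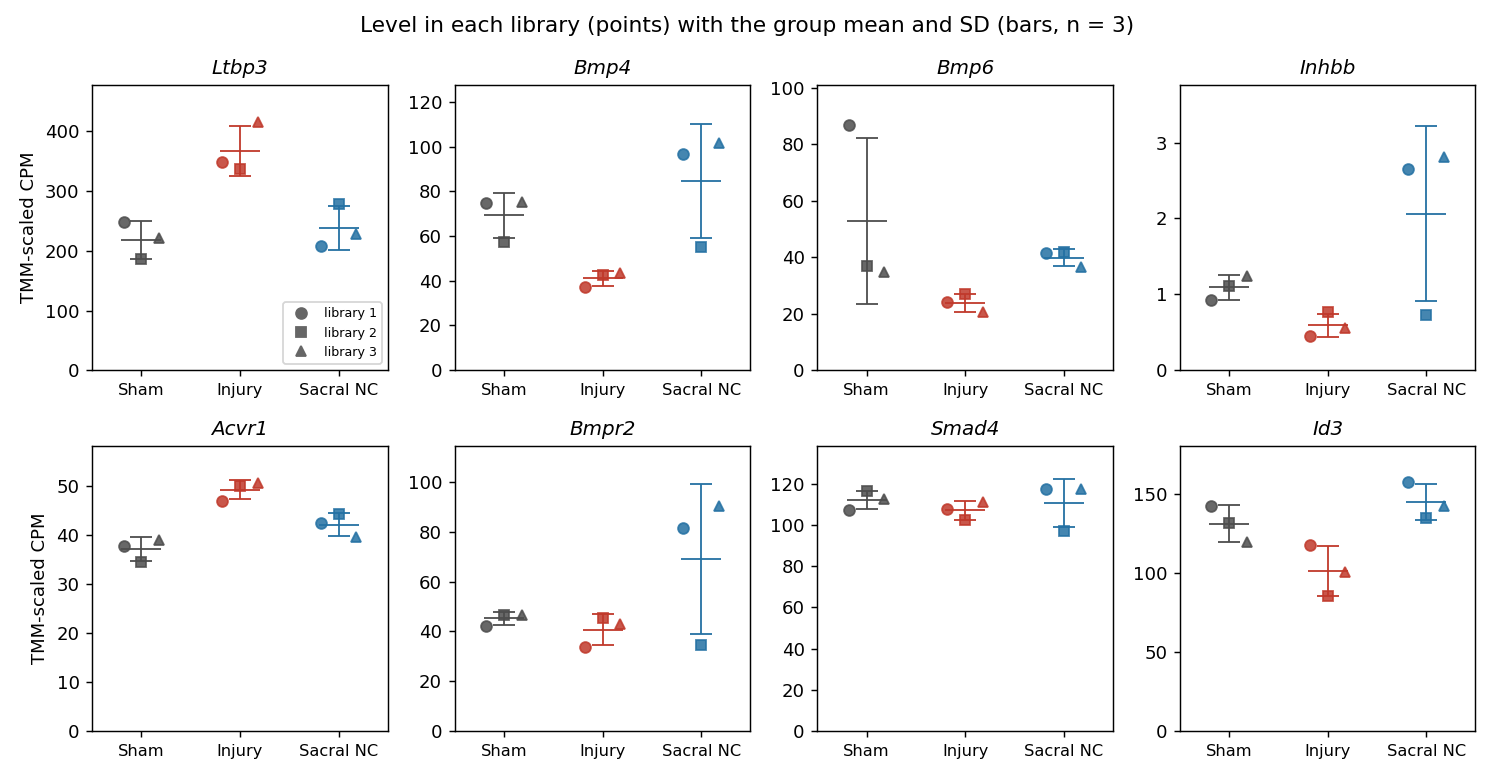
TMM-scaled CPM (y axis, from 0) of 8 genes in Sham, Injury and Sacral NC, with 1 point per library (circle, square and triangle for libraries 1 to 3) and bars for mean and SD (n = 3). Injury is highest for Ltbp3 and Acvr1 and lowest for Bmp4 and Bmp6; the square of Sacral NC, library 2, lies below the other points of its group for Bmp4, Inhbb and Bmpr2.

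Of the receptors, Acvr1 had the smallest spread within groups of the 42 members. It stood at 37.8, 34.5 and 39.1 CPM in Sham, or 37.1 ± 2.37 CPM (SD, n = 3). It stood at 47.0, 49.98 and 50.6 CPM in Injury, or 49.2 ± 1.95 CPM (SD, n = 3), and at 42.4, 44.3 and 39.7 CPM in Sacral NC, or 42.1 ± 2.32 CPM (SD, n = 3). The 3 groups did not overlap, with Sham lowest, Sacral NC between and Injury highest. Acvr1 rose 1.33-fold in Injury against Sham, a log2 change of 0.41 ± 0.08 (SE, adjusted p = 0.0328, edgeR). It was not called in Sacral NC against Injury, at -0.22 ± 0.08 (SE, adjusted p = 0.131, edgeR), nor in Sacral NC against Sham, at 0.18 (adjusted p = 0.63, edgeR). The call in Injury against Sham was lost on leaving out any 1 Sham or Injury library, with log2 changes of 0.36 to 0.44, and kept on leaving out any 1 Sacral NC library. Acvr1 (ENSRNOG00000005033) lies at 42978561 to 43098241 on chromosome 3 in the tables.

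Tgfbr2, the type II receptor gene for TGF-beta, stood at 464, 432 and 493 CPM in Sham, 429, 382 and 491 CPM in Injury and 541, 490 and 616 CPM in Sacral NC. Its groups overlapped, and the log2 change in Sacral NC against Injury was 0.34 (adjusted p = 0.153, edgeR). Tgfbr3, encoding the co-receptor betaglycan, stood at 172, 165 and 205 CPM in Sham, 108, 76.9 and 150 CPM in Injury and 186, 136 and 275 CPM in Sacral NC. Its Injury libraries lay below all Sham libraries. The log2 change of Tgfbr3 was -0.69 ± 0.30 (SE, adjusted p = 0.222, edgeR) in Injury against Sham and 0.83 ± 0.30 (SE, adjusted p = 0.123, edgeR) in Sacral NC against Injury. Acvrl1, the gene of ALK1, a type I receptor known from endothelium, averaged 112 ± 3.43 CPM in Sham, 91.6 ± 3.56 CPM in Injury and 110 ± 10.3 CPM in Sacral NC (SD, n = 3). Its Injury libraries lay below those of the other groups, with log2 changes of -0.29 (adjusted p = 0.1, edgeR) and 0.26 (adjusted p = 0.106, edgeR). Bmpr2, the BMP type II receptor gene, stood at 42.3, 46.7 and 46.8 CPM in Sham, 33.6, 45.3 and 43.0 CPM in Injury and 81.8, 34.5 and 90.6 CPM in Sacral NC. Sacral NC 1 and 3 were above all other libraries, and Sacral NC 2 was below all Sham libraries. The log2 change of Bmpr2 was 0.76 (adjusted p = 0.161, edgeR) in Sacral NC against Injury. In Sacral NC against Sham it was 0.61 (adjusted p = 0.633, edgeR). Tgfbr1, Acvr2a, Acvr2b, Bmpr1a and Bmpr1b had log2 changes from -0.21 (Tgfbr1) to 0.14 (Acvr2a) in Injury against Sham and were not called.

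None of the 8 SMAD genes was called in any comparison. Smad4, the shared partner, stood at 108, 116 and 113 CPM in Sham, 108, 102 and 111 CPM in Injury and 118, 97.2 and 117 CPM in Sacral NC. Its groups overlapped, and the interval of its log2 change in Injury against Sham ran from -0.28 to 0.15. Smad5, a BMP-arm SMAD, stood at 79.2, 73.8 and 83.3 CPM in Sham, 78.6, 85.2 and 86.5 CPM in Injury and 72.8, 75.4 and 86.3 CPM in Sacral NC, and its groups overlapped too. The TGF-beta-arm SMADs had log2 changes of 0.10 for Smad2, with an interval of -0.12 to 0.32, and 0.03 for Smad3, with an interval of -0.21 to 0.28, in Injury against Sham. Smad1 was the SMAD whose Injury libraries lay below all others. It averaged 73.8 ± 1.97 CPM in Sham, 63.4 ± 2.82 CPM in Injury and 77.7 ± 7.07 CPM in Sacral NC (SD, n = 3), with log2 changes of -0.22 (adjusted p = 0.18, edgeR) and 0.29 (adjusted p = 0.0749, edgeR). The inhibitory SMAD genes had log2 changes of -0.18 for Smad6 and -0.22 for Smad7 in Injury against Sham, and their groups overlapped. Smad9, another BMP-arm SMAD, varied most of the 8, with 360 reads in Sham 1, 253 in Sacral NC 2 and 66 in Sacral NC 3.

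Of the antagonists, Chrdl1, the gene of a chordin-like BMP antagonist, stood at 307, 261 and 208 CPM in Sham, 321, 152 and 332 CPM in Injury and 290, 350 and 380 CPM in Sacral NC. Ski, a nuclear corepressor of SMADs, stood at 216, 164 and 227 CPM in Sham, 204, 239 and 239 CPM in Injury and 185, 191 and 189 CPM in Sacral NC. Both genes were uncalled in all comparisons, and the Sacral NC libraries of Ski lay below those of Injury, with a log2 change of -0.27 (adjusted p = 0.227, edgeR). Its relative Skil had log2 changes of -0.24 (adjusted p = 0.201, edgeR) and 0.19 (adjusted p = 0.257, edgeR) in the first 2 comparisons. Grem1, the gene of the BMP antagonist gremlin 1, stood at 39.5, 35.1 and 16.2 CPM in Sham, 46.3, 55.0 and 52.7 CPM in Injury and 19.7, 81.6 and 96.9 CPM in Sacral NC. Its Injury libraries lay above those of Sham, and Sacral NC held the highest values and 1 of the lowest. Nog, encoding noggin, had the largest spread within groups of the 42, with 9 to 44 reads in the Injury libraries and 18 to 91 in those of Sacral NC. Fst, the gene of the activin antagonist follistatin, had log2 changes of -0.43 (adjusted p = 0.392, edgeR) and 0.70 (adjusted p = 0.152, edgeR). Fstl3, a follistatin-like gene, and Bambi, a decoy receptor gene, had overlapping groups in all 3 comparisons.

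The target genes were Id1, Id2 and Id3, inhibitors of basic helix-loop-helix transcription factors. Id3 stood at 143, 132 and 120 CPM in Sham, 117, 85.6 and 101 CPM in Injury and 158, 135 and 142 CPM in Sacral NC. Its Injury libraries lay below all others. The log2 change of Id3 was -0.37 ± 0.13 (SE, adjusted p = 0.143, edgeR) in Injury against Sham and 0.52 ± 0.13 (SE, adjusted p = 0.0505, edgeR) in Sacral NC against Injury, just outside the threshold. The latter change was called by DESeq2 (adjusted p = 0.00948) and by edgeR with at least 10 reads in every library of a group (adjusted p = 0.0488). It was also called in edgeR without Injury 1 (adjusted p = 0.047), without Sacral NC 2 (adjusted p = 0.0265) and under total-count scaling (adjusted p = 0.0203). Of the 9 edgeR fits that left out 1 library, only 2 called it, and the adjusted p reached 0.155. Id1 stood at 121, 102 and 94.5 CPM in Sham, 92.2, 54.6 and 67.3 CPM in Injury and 95.2, 125 and 74.7 CPM in Sacral NC, with log2 changes of -0.57 (adjusted p = 0.2, edgeR) and 0.46 (adjusted p = 0.243, edgeR). Id2 stood at 137, 114 and 99.1 CPM in Sham, 130, 117 and 103 CPM in Injury and 98.7, 155 and 111 CPM in Sacral NC. Its groups overlapped, and its log2 change was 0.00 in Injury against Sham, with an interval of -0.43 to 0.43.

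**Figure D3:**
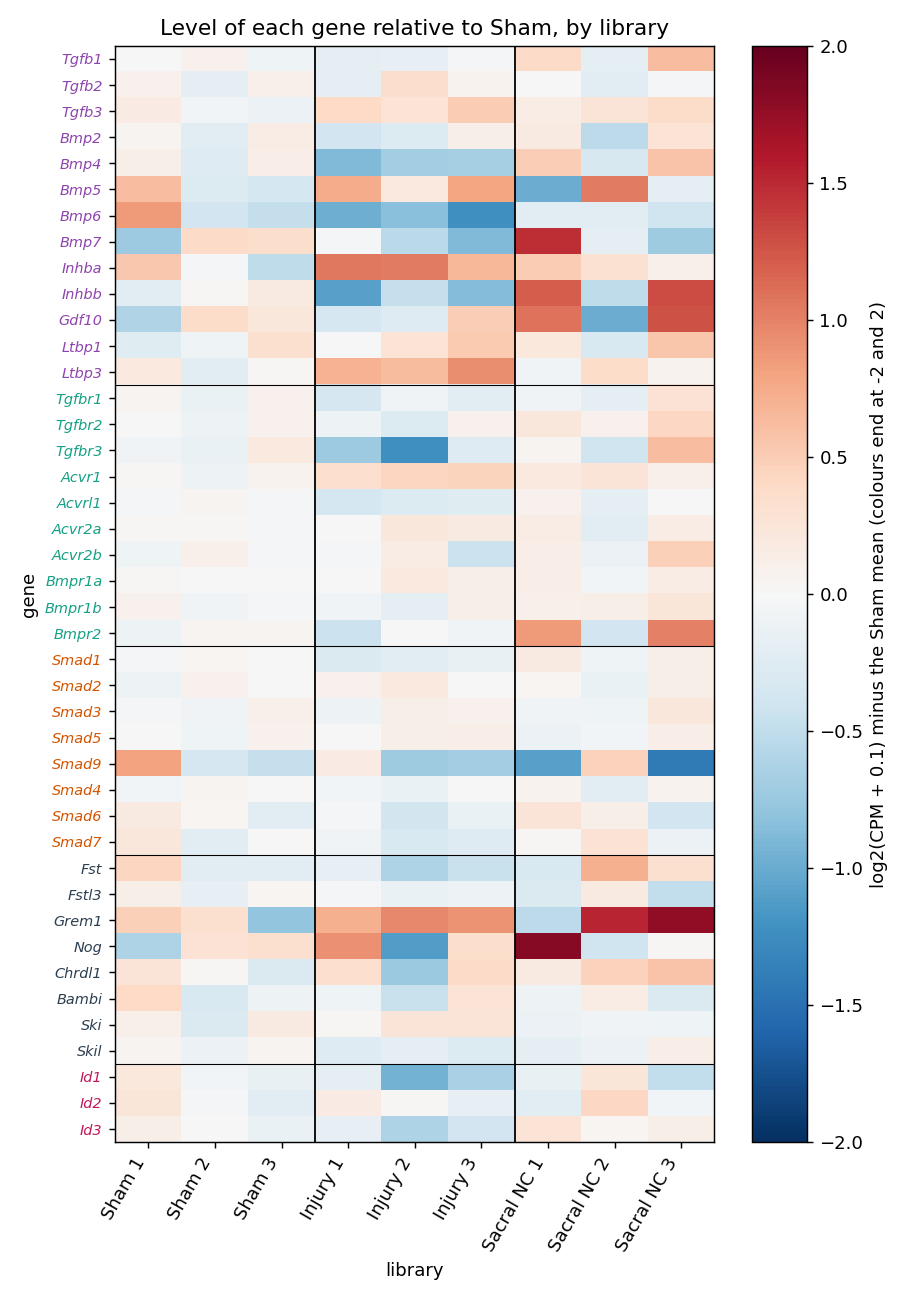
Level of each of the 42 genes (rows, ordered by class) in each of the 9 libraries (columns) as log2(CPM + 0.1) minus the Sham mean; red is higher and blue is lower than Sham. Bmp4, Bmp6 and Id3 are blue in all Injury libraries, and Gdf10, Inhbb and Bmpr2 are red in Sacral NC 1 and 3 and blue in Sacral NC 2.

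Counted by overlap alone, 14 of the 42 members (33.3%) had Injury and Sham libraries that did not overlap, beside 35.3% of all genes tested (15.4% higher, 19.9% lower). Of these, Tgfb3, Inhba, Ltbp3, Acvr1 and Grem1 were higher in Injury, and Bmp4, Bmp6, Inhbb, Tgfbr3, Acvrl1, Smad1, Skil, Id1 and Id3 were lower. In Sacral NC against Injury 10 members (23.8%) did not overlap, beside 26.4% of all genes (14.1% higher, 12.4% lower). Bmp4, Bmp6, Acvrl1, Smad1, Skil and Id3 were the 6 that lay higher in Sacral NC, and Inhba, Ltbp3, Acvr1 and Ski the 4 that lay lower. Between Sacral NC and Sham, Acvr1 and Bmpr1b did not overlap and were higher in Sacral NC (4.76% of members, beside 13.3% of all genes, 6.72% higher and 6.53% lower). At an unadjusted p under 0.05 in edgeR there were 12 of 42 members in Injury against Sham, beside 21.9% of all genes. There were 12 of 42 in Sacral NC against Injury, beside 26.6%, and 0 of 42 in Sacral NC against Sham, beside 7.94%. DESeq2 called 0 members in Sacral NC against Sham. The largest log2 change there was that of Grem1, at 1.13, with an interval of -0.09 to 2.34.

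Markers of several cell types differed between the same groups. The 9 endothelial markers together stood at 1452 to 1568 CPM in Sham, 837 to 993 CPM in Injury and 1340 to 1958 CPM in Sacral NC. Of the 9, 4 were called lower in Injury against Sham and 5 were called higher in Sacral NC against Injury. The 7 fibroblast markers together stood at 2929 to 3268 CPM in Sham, 4285 to 6009 CPM in Injury and 2543 to 4063 CPM in Sacral NC, and the higher sum in Injury came from Col6a3, a collagen gene. Without Col6a3 the other 6 stood at 2084 to 2711 CPM in Sham, 1739 to 2402 CPM in Injury and 1787 to 3553 CPM in Sacral NC. In Injury against Sham Col6a3 was the 1 fibroblast marker called, higher, and the median log2 change of the 7 was -0.05. Against Injury, Sacral NC had Col6a3 called lower and Fbln1 called higher, with a median of 0.19. The 7 macrophage markers together stood at 380 to 641 CPM in Sham, 187 to 330 CPM in Injury and 176 to 1340 CPM in Sacral NC. Their median log2 change was -1.07 in Injury against Sham and 1.95 in Sacral NC against Injury, with 0 of 7 called by edgeR in either. The 5 markers of dividing cells stood at 32.0 to 40.7 CPM in Sham, 87.7 to 154 CPM in Injury and 18.5 to 27.0 CPM in Sacral NC. Of the 5, 4 were called higher in Injury against Sham and 5 were called lower in Sacral NC against Injury. The 6 pericyte markers together stood at 498 to 624 CPM in Sham, 633 to 741 CPM in Injury and 464 to 529 CPM in Sacral NC, with 0 called in any comparison. No marker in these lists was at 0 in all libraries, and the part of these cell types in the results was not tested.

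Of the 9 fits that left out 1 library, the fit without Sacral NC 2 called the most members in Sacral NC against Injury. The groups share 1 estimate of the spread, so leaving out a library that stands apart can raise the calls in every comparison. Without Sacral NC 2, 10 of 42 members were called (23.8%), beside 22.6% of all genes, against 2 of 42 with it. Bmp4 was then higher by a log2 change of 1.27, Bmpr2 by 1.08, Inhbb by 2.20, Tgfb1 by 0.63, Tgfbr3 by 1.04, Gdf10 by 1.17, Smad1 by 0.37, Acvrl1 by 0.33 and Id3 by 0.57, and Ltbp3 was lower at -0.76. In the same fit Injury against Sham, which lost no library, had 4 members called, Ltbp3, Acvr1, Bmp4 and Acvrl1. There 8.42% of all genes were called, beside 4.43% with all 9 libraries. Bmpr2 was the 1 member called in Sacral NC against Sham, at a log2 change of 0.93 (adjusted p = 0.0455, edgeR; 0.672% of all genes). With all 9 libraries that change was 0.61 (adjusted p = 0.633, edgeR), and it was called in 1 of the 9 fits that left out 1 library. Without any of the 4 libraries rich in skeletal muscle markers, 0 members were called in any comparison, with 1 Injury library left whose spread was taken from the other groups. In that fit Ltbp3 had log2 changes of 1.07 and -0.99 and Bmp4 1.14 in Sacral NC against Injury.

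Scaling changed the split of directions. The TMM factors were lower in Injury than in Sham, and without them, on total reads alone, the median log2 change of all genes shifted by -0.27 in Injury against Sham and by 0.18 in Sacral NC against Injury. On that scale 9 members were called lower and 0 higher in Injury against Sham, beside 21.7% and 2.52% of all genes (24.2% in all), where the TMM scale gave 0 lower and 2 higher. They were Acvrl1, Bmp4, Bmp6, Id3, Skil, Smad1, Smad4, Tgfbr1 and Tgfbr3. For Sacral NC against Injury, 10 were higher and 0 lower, beside 16.4% and 2.97% of all genes (19.4% in all), where the TMM scale gave 1 higher and 1 lower. Bmp4, in Sacral NC against Injury, was called on both scales. Ltbp3 and Acvr1 kept their signs but not their calls, at log2 changes of 0.49 and 0.14 in Injury against Sham.

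Around the 42 members, 70 further genes of the superfamily were listed, of which 68 were in the tables and 53 were tested. That list was drawn up with earlier results of these data known, so its shares of called genes are a description and not a test. In Injury against Sham 7 of the 53 were called (13.2%, beside 4.43% of all genes), 4 higher and 3 lower. In Sacral NC against Injury 8 of the 53 were called (15.1%, beside 6.96%), 4 higher and 4 lower, and in Sacral NC against Sham 0 were called by edgeR, with 7 (13.2%) at an unadjusted p under 0.05, beside 7.94% of all genes, and 1 of 68 called by DESeq2, beside 62 of all 21124 genes. Gdf11, Bmp1, Emilin1 and Chrd rose in Injury against Sham and fell in Sacral NC against Injury, 2 comparisons that share the Injury libraries. Gdf11, a ligand related to myostatin, stood at 13.2, 12.6 and 11.3 CPM in Sham, 23.4, 28.8 and 24.6 CPM in Injury and 15.8, 18.7 and 16.9 CPM in Sacral NC. The 3 groups did not overlap. Gdf11 was 2.07-fold higher in Injury than in Sham (adjusted p = 0.00746, edgeR), and stayed called in 8 of the 9 fits that left out 1 library, all but the fit without Sham 3. Its fall in Sacral NC against Injury, to 0.669 of the Injury level (adjusted p = 0.03, edgeR), stayed called in 2 of 9. Bmp1 encodes a protease that cleaves procollagens and chordin and is no BMP ligand. It stood at 131, 140 and 149 CPM in Sham, 250, 242 and 296 CPM in Injury and 93.1, 164 and 136 CPM in Sacral NC, a 1.88-fold rise (adjusted p = 0.0376, edgeR) and a fall to 0.499 of the Injury level (adjusted p = 0.022, edgeR). Emilin1, a matrix protein that limits processing of the TGF-beta precursor, was 2.27-fold higher (adjusted p = 0.0291, edgeR), and Chrd, the BMP antagonist chordin, 1.94-fold higher (adjusted p = 0.0264, edgeR) in Injury than in Sham. In Sacral NC they stood at 0.531 (adjusted p = 0.0494, edgeR) and 0.557 (adjusted p = 0.031, edgeR) of the Injury level. When 1 library was left out, the rise in Injury stayed called in 2 of 9 fits for Bmp1, 4 for Emilin1 and 3 for Chrd, and the fall in Sacral NC in 5, 1 and 2 of 9.

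Eng, Crim1 and Lrrc32 fell in Injury against Sham. Eng, the gene of the endothelial co-receptor endoglin, stood at 256, 209 and 191 CPM in Sham, 122, 134 and 116 CPM in Injury and 177, 125 and 139 CPM in Sacral NC. Its Injury level was 0.567 of that in Sham (adjusted p = 0.0276, edgeR), and the change in Sacral NC against Injury was not called (adjusted p = 0.341, edgeR). Crim1, which encodes a membrane protein that binds BMPs, fell to 0.631 of the Sham level (adjusted p = 0.038, edgeR). Lrrc32 and Nrros encode membrane proteins that hold latent TGF-beta, known as GARP from regulatory T cells and endothelium and as LRRC33 from macrophages. Lrrc32 stood at 58.3, 47.1 and 43.8 CPM in Sham, 27.8, 31.1 and 31.7 CPM in Injury and 60.6, 49.9 and 64.3 CPM in Sacral NC. It fell to 0.608 of Sham (adjusted p = 0.0272, edgeR) and was 1.93-fold higher in Sacral NC than in Injury (adjusted p = 0.00888, edgeR). Nrros was 2.31-fold higher in Sacral NC than in Injury (adjusted p = 0.00924, edgeR), at 28.7, 28.1 and 43.0 CPM against 14.6, 13.2 and 15.3 CPM. The macrophage markers given above had a median log2 change of 1.95 in that comparison, with Sacral NC 2 below all Injury libraries in their sum, and their part in the level of Nrros was not tested. Tll1, a protease related to Bmp1, was 1.50-fold higher (adjusted p = 0.0368, edgeR). Against Injury, the Sacral NC rises of Lrrc32 and Nrros stayed called in 9 of 9 fits that left out 1 library. Without the 4 libraries rich in skeletal muscle their log2 changes were 0.92 and 1.17, beside 0.95 and 1.21 with all 9 libraries, at adjusted p of 0.0592 and 0.102 in edgeR. The rise of Tll1 stayed called in 3 of 9 fits that left out 1 library, and in Injury against Sham the falls of Eng, Crim1 and Lrrc32 in 3, 2 and 3 of 9.

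**Figure D4:**
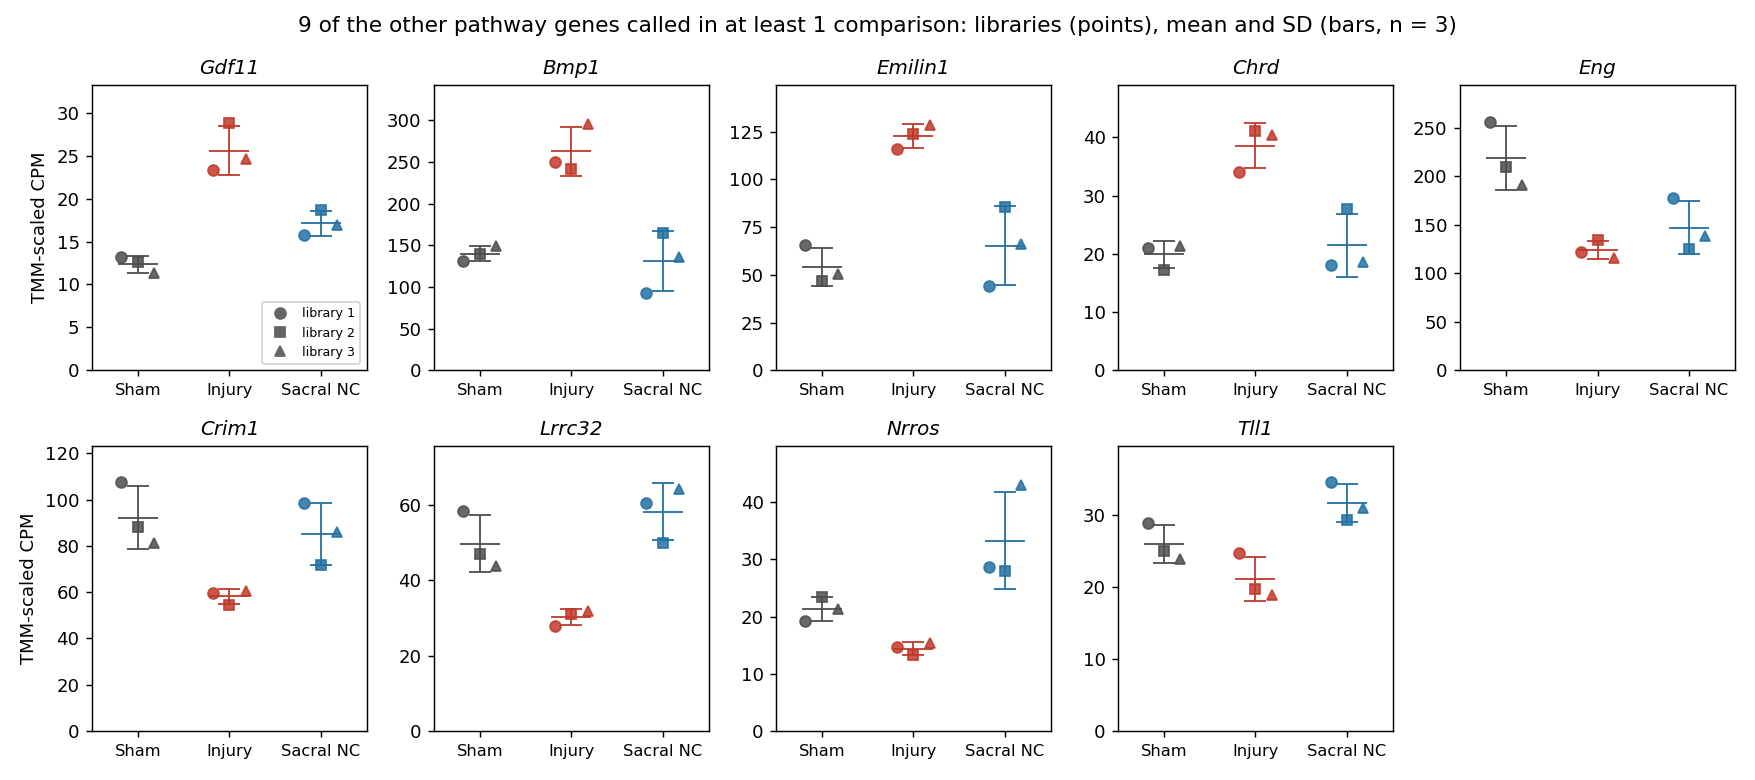
TMM-scaled CPM (y axis, from 0) of 9 of the further pathway genes called in at least 1 comparison, with 1 point per library and bars for mean and SD (n = 3) in Sham, Injury and Sacral NC. Gdf11, Bmp1, Emilin1 and Chrd are highest in Injury; Lrrc32 and Nrros are lowest in Injury and lie above it in every Sacral NC library.

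The spread of the 42 members within groups, as the SD of log2 levels pooled over the 3 groups, had a median of 0.25, beside 0.23 for all genes tested. It ran from 0.08 for Acvr1 to 0.96 for Nog. In the tables' coordinates 5 of the 42 members overlap another gene, in each case on the opposite strand. Besides Ltbp3 these are Tgfb2, Bmpr2, Smad3, which overlaps Aagab with up to 914 reads, and Fstl3, which overlaps Rnf126 with up to 222 reads. Several SMAD genes lie near each other. Smad3 and Smad6 lie 0.213 megabases apart on chromosome 8, and Smad4, Smad7 and Smad2 follow each other on chromosome 18 with gaps of 1.71 and 0.834 megabases. None of these neighbours was called.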

How the data were processed

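The authors deposited 3 tables, 1 for each pair of groups, which per the file headers hold raw read counts of each gene in 6 libraries, group means of the counts (a signal derived from them), the authors' log2 fold changes, their test score, and each p-value before and after adjustment. The submitters' processing notes name HISAT2 2.0.5 and the mouse build GRCm38.p6, while the deposited identifiers are rat; the counting tool, strand setting, annotation release and rat build were not given in the sources used here. Counts of the 9 libraries were joined into 1 matrix, filtered with filterByExpr, scaled by TMM and tested in 1 model with a mean per group by edgeR 4.0.16 (limma 3.58.1, R 4.3.3; robust quasi-likelihood F-test, 6 residual degrees of freedom, Benjamini-Hochberg over the 15509 genes tested, called under 0.05). The procedure was tested on simulated counts. These were drawn independently from 1 mean profile, without differences in tissue content between libraries, so they do not cover such differences. Groups and replicate numbers came from the sample titles. Total counts ran from 15442190 to 18283418 per library, so genes with few reads carry large counting error.

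The 42 members, the pathway and marker lists and the tests were chosen with earlier results of these data known. Values in every library are given for members called in at least 1 comparison and for the 2 members of each class with the highest mean; other genes given in full were chosen after their values were seen. Of the further pathway genes, those called are named, apart from items not reported here. Alternatives were DESeq2 1.42.0 with its size factors on unfiltered counts, DESeq2-type size factors in edgeR, other low-count filters, a replicate block, fits of only the 2 groups compared and fits without each library. Added after seeing the data were fits without the 4 libraries rich in skeletal muscle, with a skeletal muscle score as covariate, with TMM factors computed without collagen genes and with total-count scaling. Reads of transplanted human cells were not separated from rat reads. No sequences are shown, since no rat sequence was used here.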

Additional observations from a re-analysis of the deposited data

How the results depend on the processing

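For Injury against Sham, Sacral NC against Injury and Sacral NC against Sham in that order, the members called numbered 2, 2 and 0, the further pathway genes 7, 8 and 0, and all genes 687, 1080 and 0. DESeq2 called 5, 5 and 0 members, 10, 13 and 1 pathway genes and 1584, 2268 and 62 of all genes. Without a low-count filter Sacral NC against Injury kept 1 member. That count is given without the share of all genes called there, so it cannot be read as particular to the members. Fits of only the 2 groups compared called 3, 0 and 0 members, 12, 2 and 0 pathway genes and 1456, 239 and 0 of all genes. Without the muscle-rich libraries there were 0 members and 0 pathway genes in each comparison, and 1, 59 and 0 of all genes; the cause was not tested, but 5 libraries remained. With the muscle score as covariate 1, 1 and 0 members, 5, 4 and 0 pathway genes and 500, 480 and 0 of all genes were called. Total-count scaling called 9, 10 and 0 members, 19, 11 and 0 pathway genes and 3754, 3009 and 0 of all genes. Leaving out 1 library at a time gave 0 to 4, 0 to 10 and 0 to 1 members, 0 to 11, 3 to 17 and 0 to 1 pathway genes, and 21 to 1329, 285 to 3574 and 0 to 106 of all genes. With the replicate block 0, 1 and 0 members (the 1 is Tgfbr3), 3, 5 and 0 pathway genes and 267, 471 and 0 of all genes were called. Deviations from the group means of same-numbered libraries correlated from -0.55 (Sham 1 and Sacral NC 1) to 0.62 (Sham 3 and Injury 3). Not every library correlated best with its own number. Sham 1 and Sacral NC 2, both rich in skeletal muscle markers, correlated at 0.60 across numbers. Differences in tissue content could hide a pairing, so these values cannot show whether the replicate numbers pair the libraries. Size factors of the DESeq2 type, the stricter filter and TMM factors without collagen genes kept every count of called members, pathway genes and all genes within 1.5 times that above. Of 2964 log2 changes recomputed for single members and pathway genes, 145 changed sign, and 0 of these were called under either setting. Depth limits Inhbb, Nog, Inhba and Acvr2b, which had at most 91 reads in a library.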

Other observations

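The authors' deposited table for Sham against Injury lists 1581 genes with an adjusted p under 0.05 (10% of those given one), among them 5 of the 42 members: Acvr1, Bmp4, Bmp6, Ltbp3 and Tgfb3. The authors' deposited table for Sacral NC against Injury lists 2275 such genes (14.8%), among them 6 members: Bmp4, Id3, Inhbb, Ltbp3, Smad1 and Tgfbr3. The authors' deposited table for Sacral NC against Sham lists 61 such genes (0.359%) and 0 members.

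Among the 7 further TGF-beta and BMP target genes tested, edgeR called 0 in Injury against Sham, beside 4.43% of all genes. It called 0 in Sacral NC against Injury and 0 in Sacral NC against Sham, beside 6.96% and 0%. So few genes at such shares cannot show that targets were unchanged. At an unadjusted p under 0.05 in edgeR there was 1 of 7 in each comparison, beside 21.9%, 26.6% and 7.94% of all genes. Libraries did not overlap for 2 of 7 (28.6%) in Injury against Sham, both lower, beside 35.3%. The same held for 1 of 7 (14.3%) in each other comparison, beside 26.4% and 13.3%.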
